A study of Mus musculus with 12 samples.

Results

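Ankrd1, Ankrd2, Ankrd23, Csrp3, Xirp1 and Xirp2 are 6 muscle genes whose proteins sit on or near titin and the Z-disc, and all 6 were followed here in proximal hind limb skeletal muscle of male FVB mice (FVB/N in the study's methods). The 6 were taken by gene symbol, and all were found among the 22923 symbols of the expression files and passed the filter on low values, which left 11945 genes. They were chosen by their titin-linked roles and by measured values of these same samples. Which values is not stated, and they were taken here to be the KO against WT difference of Ankrd1. For that reason the genotype differences of the 6 genes are given below as a description, without tests, and the diet comparisons and the interaction carry the tests. The study asked how loss of the small heat shock proteins αB-crystallin (Cryab) and HspB2 (Hspb2) changes muscle on a high fat diet. It used 4 groups of 3 samples, all taken at 22 weeks of age. WT mice, called Flox in the sample titles, and mice lacking both genes in every tissue (alphaB-crystallin/HspB2 knock out, here KO) were kept either on normal chow or on a high fat diet begun at 6 weeks of age, here called chow and high fat. Both genotypes came from heterozygous breeding as littermates. The KO is a combined deletion present in all tissues from the germ line, so neither gene nor tissue can be told apart as the origin of a difference.

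Titin is the giant elastic protein that spans from the Z-disc to the middle of the sarcomere. Ankrd1 (CARP), Ankrd2 (ARPP) and Ankrd23 (DARP) form the muscle ankyrin repeat protein family, which binds the N2A element of titin in the I-band and can also enter the nucleus. Csrp3 encodes muscle LIM protein, a Z-disc and nuclear adaptor linked to mechanical signalling and to slow muscle. Xirp1 and Xirp2 encode Xin and XIRP2, actin-binding repeat proteins that bind filamin C and are found at muscle attachment and repair sites. Ankrd1 is known as a gene of heart muscle that is low in healthy limb muscle and rises after stretch, injury or denervation.

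The values are FPKM, which count fragments relative to transcript length and to the mapped total, and so correct for gene length, which lets levels of different genes be set side by side. Read numbers per library are not known. Differences are given as log2(FPKM + 1), a scale that understates changes of genes with low values, with the standard error (SE) of the fit to all 12 samples. The genotype label of 6 samples conflicts with the title, and samples were grouped by title. Cryab ran from 412 to 837 FPKM in the samples titled WT and from 0.845 to 1.75 FPKM in those titled KO, and Hspb2 from 81.5 to 103 FPKM against 0.353 to 1.92 FPKM, so that no sample went against its title. Of the markers of skeletal muscle, Ckm ran from 13300 to 25900 FPKM. Myh4 was listed at 0 in all 12 samples and Acta1 at 0 in WT chow replicate 1 and KO high fat replicate 2, and such zeros in abundant muscle genes can be failed estimates. The lymphocyte markers summed to 92.7, 107 and 105 FPKM in WT chow replicate 2, KO chow replicate 1 and KO chow replicate 3. Elsewhere the sum ran from 0.717 to 7.37 FPKM. The chow genotype differences of the 6 genes without these 3 libraries are given with the results. In whole muscle, fewer cells of a type and less RNA per cell cannot be told apart.

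In WT mice on chow the 6 genes covered a wide range of levels. Ankrd23 stood at 1063 ± 212 FPKM (SD, n = 3), above 99.75% of the 18589 genes listed above 0 in any sample. Xirp2 followed at 161 FPKM, Csrp3 at 95.4 FPKM, Ankrd2 at 45.2 FPKM and Xirp1 at 26.7 FPKM. Ankrd1 was the lowest of the 6, at 1.48 ± 0.587 FPKM (SD, n = 3), above 43.0% of genes. Xirp2 lay above Csrp3 in every WT chow sample, by as little as 173 against 142 FPKM in replicate 1, while Csrp3 and Ankrd2 overlapped, with the lowest Csrp3 sample at 40.2 FPKM and the highest Ankrd2 sample at 52.1 FPKM. In KO mice on chow the order of the means was the same, and on high fat Ankrd1 and Xirp1 changed places. The Ankrd1 means were 34.6 ± 36.3 FPKM on chow and 47.2 ± 38.3 FPKM on high fat (SD, n = 3 each). Those of Xirp1 were 48.7 and 45.8 FPKM. In each KO group the highest Ankrd1 sample lay above the Xirp1 range, and the other Ankrd1 samples lay below it.

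**Figure D1:**
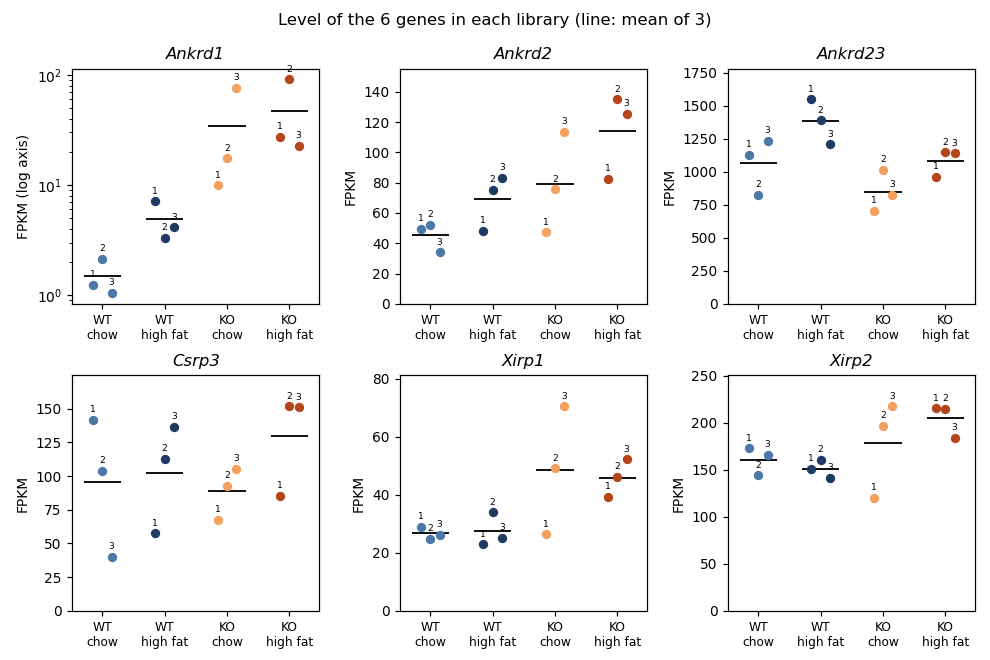
Level of each gene in FPKM (vertical axis, logarithmic for Ankrd1 and linear from 0 for the others) in the 12 samples of the 4 groups (horizontal axis), with the replicate number above each point and the arithmetic mean of 3 samples as a line. All 6 KO samples of Ankrd1, from 9.95 to 91.3 FPKM, lie above all 6 WT samples, from 1.04 to 7.13 FPKM.

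Ankrd1, the ankyrin repeat protein with the best known role in stretched and injured muscle, was the member that differed most between the genotypes. It was 1.25, 2.15 and 1.04 FPKM in the WT chow group and 7.13, 3.33 and 4.14 FPKM in the WT high fat group. The KO chow group had 9.95, 17.5 and 76.3 FPKM and the KO high fat group 27.5, 91.3 and 22.7 FPKM. The lowest KO sample was thus above the highest WT sample, and within each KO group 1 sample was more than 3 times as high as either of the others. This complete separation was shared by 1.72% of the tested genes, 205 in all, and by none of the other 5 members. The log2 difference between KO and WT mice was 3.36 with an SE of 0.66 on chow and 2.81 with an SE of 0.66 on high fat. By size these ranked 6 and 14 among the 11945 tested genes. As a ratio of group means Ankrd1 was 23.4-fold higher in KO mice on chow and 9.69-fold higher on high fat. Single samples carried much of these ratios. Without KO chow replicate 3 the first was 9.27-fold, and without KO high fat replicate 2 the second was 5.16-fold. Over both diets the coefficient of variation was 105% and 81.1% in the 2 KO groups, against 39.7% and 41.1% in the 2 WT groups.

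Ankrd2, the family member tied to slow muscle and to stretch, was higher on average in KO mice but overlapped between genotypes. It was 49.5, 52.1 and 34.0 FPKM in the WT chow group, 48.3, 75.5 and 83.1 FPKM in the WT high fat group, 47.2, 75.6 and 114 FPKM in the KO chow group and 82.6, 135 and 125 FPKM in the KO high fat group. KO chow replicate 1 lay within the WT chow range, and KO high fat replicate 1 lay just below the highest WT sample on that diet. The log2 difference between genotypes was 0.72 on chow and 0.73 on high fat, each with an SE of 0.32. With single libraries left out, the first ran from 0.42 (without KO chow replicate 3) to 1.04 (without KO chow replicate 1). The second ran from 0.49 (without WT high fat replicate 1) to 0.945 (without KO high fat replicate 1). Replicates 2 and 3 of both KO groups were higher than replicate 1, the same libraries that were high in Xirp1 on those diets.

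Ankrd23, the most abundant of the 3, was the only member with lower means in KO mice on both diets. It was 1130, 826 and 1233 FPKM in the WT chow group, 1549, 1388 and 1207 FPKM in the WT high fat group, 702, 1016 and 824 FPKM in the KO chow group and 963, 1146 and 1141 FPKM in the KO high fat group. On high fat diet the genotypes did not overlap, while on chow KO replicate 2 lay above the lowest WT sample. The log2 difference was -0.32 on chow and -0.35 on high fat, each with an SE of 0.18. With quantile normalization these shrank to -0.11 and -0.02, so the direction of Ankrd23 was kept but its size depended on the scaling.

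The shares of the 3 genes in the family total followed from these levels. Of the summed FPKM of the 3 ankyrin repeat genes, Ankrd1 made up 0.0822% to 0.445% in the 6 WT samples and 1.31% to 7.52% in the 6 KO samples. Ankrd2 made up 2.68% to 6.42% in WT and 6.22% to 11.2% in KO samples. Ankrd23 remained the main transcript throughout, with at least 81.3% of the sum in every sample. The ratio of Ankrd1 to Ankrd2 ran from 0.0252 to 0.148 in WT and from 0.181 to 0.676 in KO samples, again without overlap. This follows from the genotype values of Ankrd1, which were taken to have had a part in its choice.

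The promoters of the 3 family members are shown because the members differ in level and pattern although their proteins are related. In GRCm38 (GENCODE M21) Ankrd1 is on chromosome 19 from 36111961 to 36120099 (minus strand), and Ankrd2 is 5.92 Mb away on the same chromosome, from 42036000 to 42045110 (plus strand). Ankrd23 is on chromosome 1 from 36530188 to 36536883 (minus strand). Csrp3 is on chromosome 7 from 48830398 to 48848033 (minus strand), Xirp2 on chromosome 2 from 67446002 to 67526614 (plus strand) and Xirp1 on chromosome 9 from 120013755 to 120023598 (minus strand). Xirp1 shares its chromosome with the deleted genes, at a distance of 69.3 Mb from Cryab. The sequences below run from 250 bases before to 50 bases after the RefSeq start (build GRCm38.p6), 5′ to 3′ on the gene's strand, for chr19:36119795-36120094 (Ankrd1, minus strand), chr19:42035777-42036076 (Ankrd2, plus strand), chr1:36536507-36536806 and chr1:36535690-36535989 (the 2 annotated starts of Ankrd23, minus strand). Capitals mark the MCAT element, the letters CATTCC on either strand, which is the binding motif of the TEAD factors.
Ankrd1: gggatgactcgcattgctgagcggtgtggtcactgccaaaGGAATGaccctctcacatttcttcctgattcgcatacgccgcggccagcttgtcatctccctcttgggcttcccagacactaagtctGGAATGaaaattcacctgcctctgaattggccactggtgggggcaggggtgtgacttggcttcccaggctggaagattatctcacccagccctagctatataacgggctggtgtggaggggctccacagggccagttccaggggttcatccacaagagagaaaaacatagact
Ankrd2: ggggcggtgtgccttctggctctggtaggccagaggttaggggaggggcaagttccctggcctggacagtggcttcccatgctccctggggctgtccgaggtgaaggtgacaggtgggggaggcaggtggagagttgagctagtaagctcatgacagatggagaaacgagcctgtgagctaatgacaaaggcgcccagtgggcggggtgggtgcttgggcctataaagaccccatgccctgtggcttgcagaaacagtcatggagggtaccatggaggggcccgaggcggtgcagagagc
Ankrd23 (first start): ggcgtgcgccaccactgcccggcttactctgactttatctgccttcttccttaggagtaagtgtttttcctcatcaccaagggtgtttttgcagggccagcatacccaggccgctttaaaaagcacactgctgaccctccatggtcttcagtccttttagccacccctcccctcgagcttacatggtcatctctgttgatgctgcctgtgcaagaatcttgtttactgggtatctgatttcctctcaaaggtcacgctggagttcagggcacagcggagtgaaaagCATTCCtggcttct
Ankrd23 (second start): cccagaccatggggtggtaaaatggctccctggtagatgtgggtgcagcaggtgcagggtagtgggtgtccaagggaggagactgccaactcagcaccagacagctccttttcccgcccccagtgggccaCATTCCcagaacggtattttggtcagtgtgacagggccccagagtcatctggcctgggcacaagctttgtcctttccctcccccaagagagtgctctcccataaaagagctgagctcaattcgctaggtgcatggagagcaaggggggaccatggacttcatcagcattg

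The Ankrd1 window held 2 MCAT matches, starting 210 and 123 bases before the start, and the Ankrd2 window held 0. Each Ankrd23 window held 1, 36 bases after the first start and 120 bases before the second. RefSeq windows were found for 5 of the 6 members, 7 windows in all, Xirp1 being the one without. The windows of Csrp3 and Xirp2 held 0 MCAT matches. An MCAT match was present in 14.7% of the 32851 mouse promoter windows of the same length. On both strands, a MEF2 site was found in Xirp2 alone, 74 bases before the start (3.19% of all windows), and the CArG box of SRF in 0 of the 7 windows (1.63% of all windows). E-boxes, the letters CANNTG bound by MyoD and myogenin, were found in 6 of the 7 windows and in 72.3% of all windows, and none overlapped an MCAT match. These matches describe letters in the windows, and no binding was measured.

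Csrp3, muscle LIM protein, varied more within groups than between them. It was 142, 104 and 40.2 FPKM in the WT chow group, 57.4, 113 and 137 FPKM in the WT high fat group, 67.5, 92.9 and 106 FPKM in the KO chow group and 85.6, 152 and 151 FPKM in the KO high fat group. The genotypes overlapped on both diets, with log2 differences of 0.05 on chow and 0.38 on high fat, each with an SE of 0.45. The lowest values were in WT chow replicate 3 and WT high fat replicate 1. These were also the 2 libraries with the lowest summed slow fibre genes, at 363 and 228 FPKM against 753 to 2780 FPKM in the other 10, and the part of fibre content in Csrp3 was not tested. Myh7, the slow myosin heavy chain, was 16.9 and 3.20 FPKM in those libraries and at least 42.8 FPKM elsewhere. On normal chow the sign of the Csrp3 difference depended on single libraries, from -0.47 without WT chow replicate 3 to 0.42 without WT chow replicate 1.

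Xirp1, which encodes Xin, was narrow in WT mice and wider in KO mice. It was 28.9, 24.9 and 26.3 FPKM in the WT chow group, 22.9, 34.0 and 25.1 FPKM in the WT high fat group, 26.4, 49.2 and 70.6 FPKM in the KO chow group and 39.2, 46.1 and 52.2 FPKM in the KO high fat group. All 3 KO samples on high fat were above the WT samples on that diet, and on chow KO replicate 1 stayed within the WT range. The log2 difference was 0.74 on both diets, with an SE of 0.28. With single libraries left out, the chow difference ran from 0.42 (without KO chow replicate 3) to 1.12 (without KO chow replicate 1). On high fat it ran from 0.62 to 0.90.

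Xirp2, the larger Xin relative, showed smaller differences. It was 173, 144 and 166 FPKM in the WT chow group, 151, 161 and 141 FPKM in the WT high fat group, 120, 196 and 218 FPKM in the KO chow group and 215, 215 and 184 FPKM in the KO high fat group. KO chow replicate 1 was the lowest of the 12 samples, and on high fat all 3 KO samples were above the WT samples. The log2 difference was 0.10 on chow and 0.43 on high fat, each with an SE of 0.19. Without KO chow replicate 3 the first was -0.06.

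**Figure D2:**
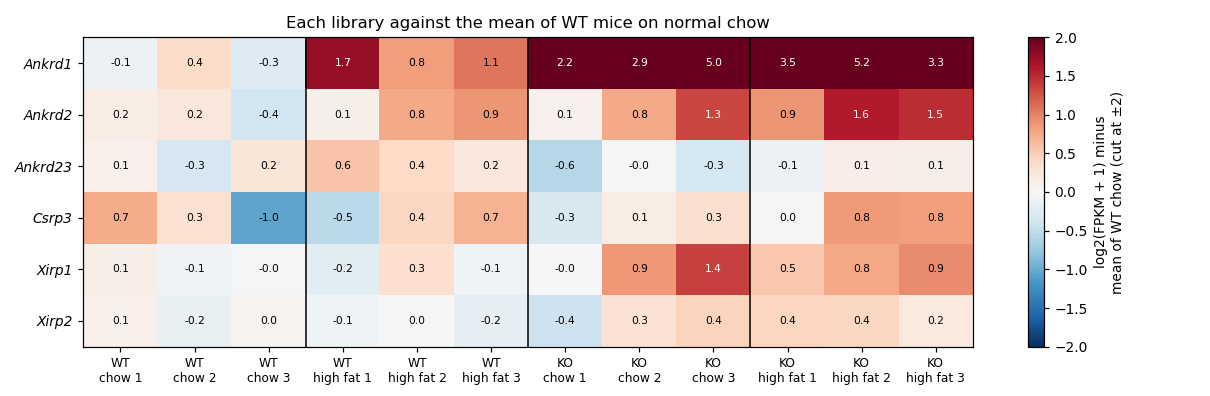
Each cell gives log2(FPKM + 1) of a gene (rows) in a library (columns) minus the mean of the 3 WT samples on chow, in red where higher and blue where lower, with the colour cut at 2. Ankrd1 is above the WT chow mean in all 6 KO libraries, and KO chow replicate 1 stands near the WT chow mean for Ankrd2 and Xirp1 and below it for Xirp2.

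Counted over the 6 members, the groups did not overlap for 1 member on chow, where this held for 18.4% of genes, and for 4 on high fat, where it held for 23.7%. Of those 4, Ankrd1, Xirp1 and Xirp2 were higher in KO mice and Ankrd23 was lower. The median log2 difference of the members was 0.41 on chow and 0.58 on high fat, beside -0.03 and -0.01 over all tested genes. Since the genotype values were taken to have had a part in choosing the list, nothing is read from these counts. Grouping the samples by the genotype label in place of the title turned the sign of the high fat difference in all 6 genes, and of the chow difference in Csrp3 and Xirp2.

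Markers of other cells moved with genotype as well. The 6 macrophage markers summed to 13.0 to 47.1 FPKM in WT and to 52.1 to 98.8 FPKM in KO samples, without overlap, with the macrophage gene Emr1 between 0.942 and 3.37 FPKM in WT and between 3.32 and 8.35 FPKM in KO samples. Of these 6 markers, 4 were at 1 FPKM or more in all 12 samples. The 6 fibroblast markers, all at 1 FPKM or more throughout, summed to 591 to 979 FPKM in WT and 820 to 1340 FPKM in KO samples. The 6 adipocyte markers, 2 of them at 1 FPKM or more throughout, summed to 534 to 1700 FPKM in WT and 1500 to 3320 FPKM in KO samples. On high fat, some other marker lists were lower in KO mice without overlap. The 6 tendon markers summed to 245 to 423 FPKM in WT and 72.1 to 181 FPKM in KO samples on that diet, and the 6 smooth muscle markers to 149 to 191 FPKM against 106 to 133 FPKM. The 5 cartilage and bone markers, 0 of them at 1 FPKM or more throughout, summed to 0.259 to 25.6 FPKM against 0.0195 to 0.203 FPKM. The part of these cells in the genotype differences of the 6 genes, and of the gene lists given further on, was not tested. None of the 3 lymphocyte-rich libraries is in a high fat group. Without them, an alternative chosen after the data were seen that leaves 1 KO chow sample, the chow difference was 3.11 in Ankrd1, 0.86 in Ankrd2, -0.22 in Ankrd23, 0.29 in Csrp3, 0.81 in Xirp1 and 0.21 in Xirp2. Each kept the sign it had in all samples.

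High fat diet did not move any of the 6 genes past the adjusted threshold in either genotype. In WT mice 0 of 6 members had an adjusted p under 0.05 in limma, against 0.1% of tested genes, and 0 had an unadjusted p under 0.05, against 8.12%. In KO mice the counts were 0 against 0% adjusted and 0 against 11.3% unadjusted. Ankrd1 was the 1 member whose WT groups did not overlap between diets, which 13.1% of genes did. In KO mice 0 members were without overlap, against 16.9% of genes.

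In WT mice all 3 Ankrd1 values on high fat lay above the chow range. The means were 1.48 ± 0.587 FPKM on chow and 4.87 ± 2.0 FPKM on high fat (SD, n = 3 each). The log2 difference was 1.22 with an SE of 0.66, a 95% interval from -0.24 to 2.67 (limma adjusted p = 0.70). This SE uses 1 spread fitted over all 4 groups, to which the wider KO groups contribute. Against the WT chow mean, log2 values ran from -0.25 to 0.37 in WT chow and from 0.83 to 1.74 in WT high fat samples. They ran from 2.17 to 4.99 in KO chow and from 3.29 to 5.25 in KO high fat samples. With only the 2 WT groups fitted, 0 members passed the adjusted threshold. In KO mice the Ankrd1 difference between diets was 0.67 (limma adjusted p = 0.66), and the ratio of means of 1.37 ran from 0.727 without KO high fat replicate 2 to 3.44 without KO chow replicate 3. Ankrd2 had like differences in both genotypes, 0.58 in WT mice and 0.59 in KO mice (limma adjusted p = 0.70 and 0.48). Ankrd23 was 0.39 higher on high fat in WT mice and 0.37 higher in KO mice on the log2 scale (limma adjusted p = 0.62 and 0.45). So the 3 ankyrin repeat genes had higher means on high fat in both genotypes, none of which passed the test. The tendon markers also moved with diet in WT mice, from 38.4 to 100 FPKM in sum on chow and from 245 to 423 FPKM on high fat. The smooth muscle markers ran from 110 to 144 FPKM in sum on chow and from 149 to 191 FPKM on high fat in WT mice. The cartilage and bone markers ran from 0.0326 to 0.102 FPKM and from 0.259 to 25.6 FPKM. The part of these markers in the diet differences was not tested.

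Csrp3 differed between diets by 0.19 in WT mice and 0.52 in KO mice (limma adjusted p = 0.94 and 0.62), and its WT difference turned to -0.34 without WT chow replicate 3. Xirp1 differed by 0.02 in WT and 0.01 in KO mice, with 95% intervals from -0.60 to 0.64 and from -0.61 to 0.63. For Xirp2 the differences were -0.09 in WT and 0.24 in KO mice (limma adjusted p = 0.93 and 0.59). The intervals leave room for changes in either direction in these 3 genes. Over the 6 members the median diet difference was 0.29 in WT and 0.44 in KO mice, beside -0.01 and 0.03 over all tested genes.

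**Figure D3:**
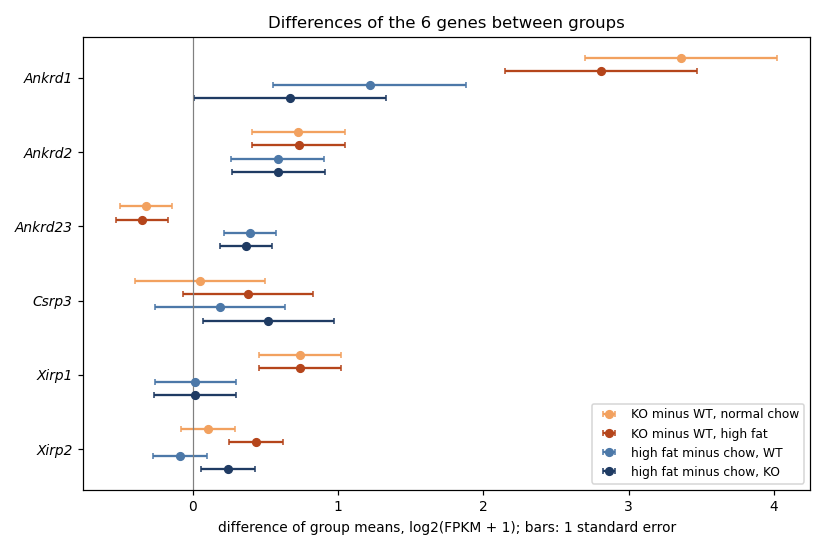
Differences of group means on the log2(FPKM + 1) scale (horizontal axis) for the 6 genes (vertical axis), with bars of 1 SE from the limma fit to 12 samples, for KO minus WT on each diet and high fat minus normal chow in each genotype. Ankrd1 has the largest genotype differences, 3.36 and 2.81, and Ankrd23 lies below 0 in both genotype comparisons.

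The diet by genotype interaction, the difference between the 2 diet effects, was also tested. Again 0 of 6 members passed at an adjusted p under 0.05 in limma, against 0% of all genes, and 0 at an unadjusted p under 0.05, against 6.25%. The interaction was -0.55 for Ankrd1 with an SE of 0.94 (limma adjusted p = 0.95). For Csrp3 and Xirp2 it was 0.33 each (limma adjusted p = 0.95 and 0.90). Ankrd2, Ankrd23 and Xirp1 had interactions between -0.03 and 0.003, with 95% intervals reaching at most 1.00 in size. The median was -0.00105 over the members and 0.0257 over all genes.

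How the 6 genes varied together over the 12 samples is given as Pearson's r of log2(FPKM + 1), a description that mixes genotype, diet and library. Ankrd1 followed Ankrd2 with an r of 0.81 and Xirp1 with an r of 0.80, and the 2 Xin genes followed each other at 0.81. Ankrd2 followed Xirp1 at 0.79 and Csrp3 at 0.73. Ankrd23 had r between -0.27 and 0.06 to the other 5. After the group means were taken off, Ankrd2 and Csrp3 had an r of 0.81, Xirp1 and Xirp2 one of 0.81, and Ankrd1 and Ankrd2 one of 0.58. Ankrd23 then had an r of 0.54 with Xirp2 and 0.39 with Xirp1, and between -0.20 and 0.10 with the other 3.

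The 5 tested genes most like Ankrd1 by r over the 12 samples were Cx3cl1 at 0.98, Uchl1 at 0.96, Tmem158 at 0.94, Hsf2bp at 0.94 and Myl4 at 0.94. In each of them, as in Ankrd1, all 6 KO samples lay above all 6 WT samples. The 5 genes were picked by r over these same samples, with the genotype difference left in. That split, and the shared highest samples named below, thus follow largely from the choice. Cx3cl1, the chemokine fractalkine, ran from 0.823 to 1.69 FPKM in WT and from 3.22 to 16.6 FPKM in KO samples. Uchl1, a deubiquitinase of neurons and endocrine cells, ran from 2.75 to 5.73 FPKM in WT and from 6.99 to 32.7 FPKM in KO samples. Myl4, the myosin light chain of embryonic muscle and atria, ran from 5.93 to 12.1 FPKM in WT and from 18.4 to 73.1 FPKM in KO samples. KO chow replicate 3 and KO high fat replicate 2, the 2 highest samples of Ankrd1, were also the 2 highest in all 5 genes.

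**Figure D4:**
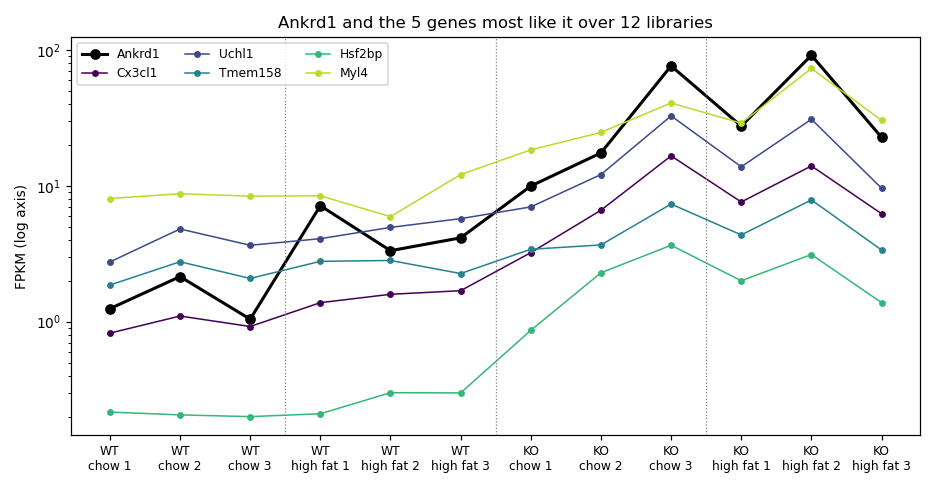
FPKM on a logarithmic axis (vertical) of Ankrd1 and the 5 tested genes with the highest Pearson r to it in the 12 libraries (horizontal axis, dotted lines between groups). The lines peak together in KO chow replicate 3 and KO high fat replicate 2, where Ankrd1 is 76.3 and 91.3 FPKM. The genes were chosen by this likeness.

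The neighbours of the other members were different. Ankrd2 was most like Ddx56 at 0.91 and Spsb4 at 0.90, and Ankrd23 was most like Mlf2 at 0.94 and Glrx2 at 0.94. Csrp3 was most like Fhl1 at 0.87 and Myoz2 at 0.87, a LIM protein and a calsarcin of slow fibres. Xirp1 was most like Tnfrsf22 at 0.94 and Tnfrsf12a at 0.93, the latter being the TWEAK receptor Fn14, which ran from 9.86 to 15.9 FPKM in WT and from 15.9 to 54.4 FPKM in KO samples. Xirp2 was most like Flnc at 0.94, which encodes filamin C, the binding partner of the Xin proteins. Flnc itself was 73.6 to 88.2 FPKM in WT and 58.6 to 114 FPKM in KO samples.

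Genes around the 6 were counted in 8 lists with 103 tested entries, some genes being in more than 1 list. With limma, 0 entries passed an adjusted p under 0.05 in any of the 5 comparisons, where 0.0586% of all tested genes did for genotype on chow and 0.109% for genotype on high fat. At an unadjusted p under 0.05, the diet comparison gave 4 higher and 2 lower in WT mice (5.83% of entries, 8.12% of all genes) and 11 higher and 1 lower in KO mice (11.7% of entries, 11.3% of all genes). The interaction gave 2 higher and 1 lower (2.91% of entries, 6.25% of all genes). For genotype there were 10 higher and 13 lower in KO mice on chow (22.3% of entries, 16.7% of all genes) and 15 higher and 4 lower on high fat (18.4% of entries, 16.2% of all genes). Taken by direction, 6.73% of all genes were higher and 9.93% lower in KO mice on chow, and 9.79% were higher and 6.45% lower on high fat. The genotype counts of the single lists that follow stand beside these shares. Since the lists were chosen with earlier results of these data known, nothing is read from a count above them. The 3 lymphocyte-rich libraries were kept in these counts, which were not repeated without them. Of these, KO chow replicates 1 and 3 had the lowest Ckm of all samples, at 15200 and 13300 FPKM. Ckm was 21000 FPKM in KO chow replicate 2 and 18100 to 25900 FPKM in the WT chow group. The part of this in the chow counts was not tested.

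Of the 20 titin and I-band partners, 6 were lower and 0 higher in KO mice on chow at an unadjusted p under 0.05, where 9.93% of all genes were lower, with a median log2 difference of -0.23. On high fat 1 was lower, where 6.45% of all genes were. Smyd2, a methyltransferase that acts with Hsp90 at the N2A region of titin, was 142, 103 and 142 FPKM in the WT chow group and 80.4, 102 and 82.9 FPKM in the KO chow group, a log2 difference of -0.53 (limma adjusted p = 0.28). For Fhl3, a LIM protein, the difference on chow was -0.51 (limma adjusted p = 0.29). Titin itself differed by -0.35 on chow and 0.01 on high fat (limma adjusted p = 0.35 and 0.99).

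Of 21 tested Xin and Z-disc partners, 0 were higher and 2 lower on chow, while on high fat 2 were higher and 1 was lower, all at an unadjusted p under 0.05. Myoz1, calsarcin of fast fibres, differed by -0.44 and -0.01 in the 2 comparisons (limma adjusted p = 0.30 and 0.99). Ldb3, which encodes the Z-disc protein ZASP, was listed at 0 in WT chow replicate 1 and lay between 730 and 1150 FPKM in the other 11 samples. Its difference on chow therefore rests on 1 listed zero and is not given.

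The 16 tested genes of the stretch, YAP and SRF response, among which Ankrd1 is usually counted, had medians of 0.02 and -0.04 in the genotype comparisons, with 0 higher and 2 lower on chow and 0 against 1 on high fat, each at an unadjusted p under 0.05. Ctgf, a YAP target, was 17.4, 12.3 and 11.5 FPKM in the WT chow group and 11.8, 12.9 and 24.1 FPKM in the KO chow group, with overlap. On the high fat diet Ctgf stood at 16.0, 48.9 and 32.3 FPKM in WT and 15.5, 24.2 and 13.5 FPKM in KO mice (limma adjusted p = 0.36). Egr1, an immediate early gene, overlapped on both diets (limma adjusted p = 0.48 and 0.74).

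Of the 7 tested heart stress genes, Myl4, named above by its r to Ankrd1, was higher in KO mice by 1.55 on chow and 2.11 on high fat (limma adjusted p = 0.26 and 0.06). The differences of Acta1 rest on its listed zeros in WT chow replicate 1 and KO high fat replicate 2 and are not given. Actc1, cardiac actin, was 38.3, 15.2 and 170 FPKM in the WT high fat group and 163, 165 and 347 FPKM in the KO high fat group, with overlap. Its log2 difference there was 2.15 (limma adjusted p = 0.16). On chow Actc1 was 138, 75.8 and 176 FPKM in WT and 135, 209 and 182 FPKM in KO mice. That difference was 0.49 (limma adjusted p = 0.69). In this list 1 gene on chow and 2 on high fat passed an unadjusted p under 0.05, all higher in KO mice.

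Among fibre type genes the slow list had 1 of 10 genes higher on chow (Casq2, by 0.75, limma adjusted p = 0.28) and 0 on high fat at an unadjusted p under 0.05. The fast list had 2 of 10 lower on chow and 1 lower on high fat. Myh1, fast myosin IIX, was 1390, 752 and 828 FPKM in the WT high fat group and 531, 570 and 397 FPKM in the KO high fat group, without overlap. The log2 difference was -0.95 (limma adjusted p = 0.11). Myl1 differed by -0.50 on chow (limma adjusted p = 0.28).

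The regeneration list had medians of 0.80 on chow and 1.12 on high fat, the highest of the 8 lists in both genotype comparisons. At an unadjusted p under 0.05, 5 of its 10 tested genes were higher and 1 lower in KO mice on chow, and 6 were higher and 0 lower on high fat, beside 6.73% and 9.79% of all genes higher on the same diets. Sln, sarcolipin, was 18.4, 11.2 and 4.56 FPKM in the WT chow group and 32.4, 67.3 and 110 FPKM in the KO chow group, a log2 difference of 2.53 (limma adjusted p = 0.28). On high fat diet Sln was 7.91, 17.3 and 58.9 FPKM in WT and 83.4, 254 and 47.4 FPKM in KO mice, with overlap (limma adjusted p = 0.19). Tmem8c, the fusion protein myomaker, was 0.605, 0.286 and 0.366 FPKM in the WT high fat group and 2.91, 6.46 and 1.71 FPKM in the KO high fat group. The difference was 1.60 (limma adjusted p = 0.15). On chow Tmem8c was 0.898, 2.22 and 0.176 FPKM in WT and 1.26, 2.75 and 7.41 FPKM in KO mice, with overlap. Like Ankrd1, it was highest in KO chow replicate 3, at 7.41 FPKM, and in KO high fat replicate 2. Other members chosen after their values were seen were Myh3, the embryonic myosin, which ran from 0.235 to 1.38 FPKM in WT and from 1.74 to 10.1 FPKM in KO samples, and Cdkn1a, the cell cycle inhibitor p21, with a difference of 1.55 on high fat (limma adjusted p = 0.08). Myod1 went the other way, by -0.39 on chow (limma adjusted p = 0.29).

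The denervation list, whose 9 tested genes include Myog of the regeneration list, had medians of 0.47 and 0.61. At an unadjusted p under 0.05, 3 genes were higher in KO mice on chow and 5 on high fat, beside the same 6.73% and 9.79% of all genes, and 0 were lower. Chrna1, the acetylcholine receptor α subunit, was 6.48, 5.10 and 5.41 FPKM in the WT chow group and 6.86, 8.71 and 15.5 FPKM in the KO chow group, and 6.54, 6.60 and 5.74 against 18.9, 13.2 and 9.40 FPKM on high fat. The KO samples were above the WT samples on both diets (limma adjusted p = 0.28 and 0.11). Myog, the myogenic factor of differentiation, differed by 0.63 and 1.29 (limma adjusted p = 0.34 and 0.11).

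**Figure D5:**
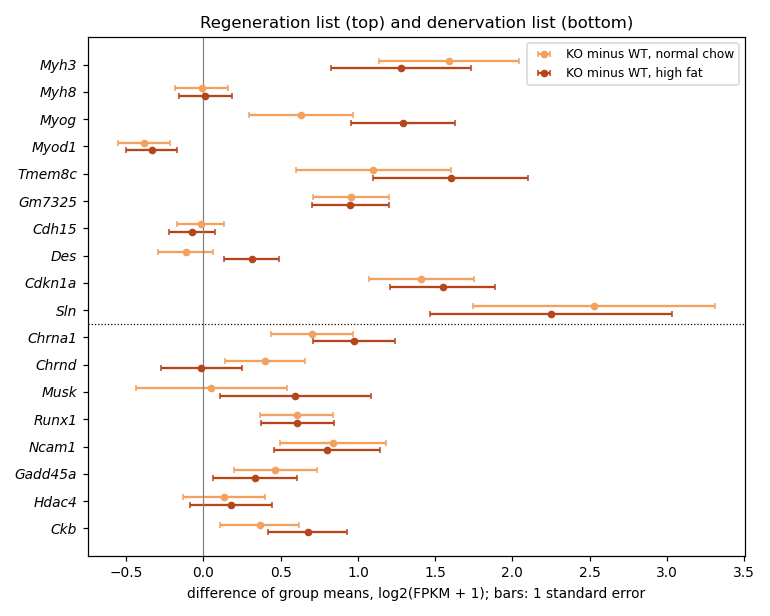
Differences between KO and WT mice on the log2(FPKM + 1) scale (horizontal axis) with bars of 1 SE, for the tested genes of the regeneration list above the dotted line and of the denervation list below it, where Myog is drawn once, above. Sln has the largest differences, 2.53 and 2.25, and none of these genes passed an adjusted p under 0.05.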

How the data were processed

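Total RNA from hind limb muscle was sequenced on an Illumina HiSeq2000. The authors deposited 1 FPKM value per gene row and sample, 23179 rows in each of 12 files, without pooling replicates. The file headers do not name the unit, and FPKM was taken from the tools in the submitters' processing notes (TopHat2 2.0.8b, Cuffdiff 2.1.1, genome build mm10, roles not given) and from the values. The annotation and filters are not given in the sources used here, and the depth in reads is unknown. FPKM from Cuffdiff divides reads among transcripts, and a listed 0 can be a failed estimate. Related genes such as Xirp1 and Xirp2 could depend on that division only where reads match both, which was not examined.

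Samples were grouped by title, and the genotype label of 6 samples conflicts with it. Where a symbol was repeated, its row of highest mean was used. Genes with at least 1 FPKM in at least 3 samples (11945 of 22923) were tested with limma 3.58.1 in R 4.3.3 on log2(FPKM + 1), two-sided, fitting 4 group means (8 residual degrees of freedom) and an intensity trend. P-values were adjusted over all tested genes by the Benjamini-Hochberg method at 0.05. The comparisons were diet in each genotype, genotype on each diet, and the interaction. The study calls the 3 samples of a group independent, and p-values measure the spread between them. The fit was checked on simulated data with a capped spread and a large added shift. The replicate SD of Ankrd1, 0.947 on the log2 scale, was above that cap. The check therefore does not speak to the power of the diet tests. The 6 genes and the gene lists were chosen with earlier results of these data known. Named beside the 6 were, of each list, genes past the threshold or else the 2 with the largest genotype differences. For each member the genes with the highest Pearson r were also named. Outside the rule for lists, titin, Myl4, Myh3, Cdkn1a, Myod1, Myh8, Cdh15, Myf5 and Pax7 were named in their lists. The values of Acta1, which fell under the rule, are not given as a difference. Alternatives were a pseudocount of 0.1, no filter, a replicate block, a fit to the compared groups alone, grouping by the genotype label, leave-one-out fits, median-of-ratios scaling and quantile normalization. Leaving out 3 lymphocyte-rich libraries (marker sum above 50 FPKM) and the log2 ratio of group means were chosen after seeing the data. Same-numbered samples did not deviate together in all pairs, so the numbers were not taken to pair them. Promoters are from RefSeq (GRCm38.p6) and positions from GENCODE M21. The remaining computations used Python 3.11.15, pandas 2.3.3 and NumPy 2.4.6.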

Additional observations from a re-analysis of the deposited data

How the results depend on the processing

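In every alternative run, leave-one-out fits included, 0 of the 6 genes passed the adjusted threshold for diet in either genotype or for the interaction, and with the replicate block the counts were 0 as well. At an unadjusted p under 0.05 in limma, the count ran from 0 to 2 members for diet in each genotype. It was 0 for the interaction throughout. Same-numbered samples correlated in their deviations between -0.81 and 0.39. The calls over all genes moved more, for example from 12 to 7 for diet in WT mice and from 13 to 5 for genotype on high fat diet with the replicate block. Grouping by the genotype label turned the genotype difference on high fat in all 6 genes, to -2.66 in Ankrd1, -0.42 in Ankrd2, 0.32 in Ankrd23, -0.08 in Csrp3, -0.41 in Xirp1 and -0.44 in Xirp2, and on chow to -0.17 in both Csrp3 and Xirp2. It also gave the opposite sign for diet in WT mice in Xirp2 (0.31), for diet in KO mice in Ankrd1 (-0.81) and Xirp1 (-0.17), and for the interaction in Ankrd2 (-0.51), Ankrd23 (0.54) and Xirp2 (-0.27). Cryab and Hspb2 levels went with the title in all 12 samples, including the 6 whose label conflicts with it. The cause of these reversals and of those that follow was not tested. For diet in KO mice Xirp1 was -0.10 with quantile normalization, -0.11 without the lymphocyte-rich libraries and -0.087 as a ratio of means, and for diet in WT mice it was -0.029 without those libraries. The Ankrd2 interaction was -0.011 with median-of-ratios scaling, -0.11 with quantile normalization, -0.14 without the lymphocyte-rich libraries and -0.072 as a ratio of means, and the Ankrd23 interaction was 0.080 with quantile normalization. With each sample left out, diet in WT mice ran from -0.34 to 0.56 in Csrp3 and from -0.15 to 0.13 in Xirp1. Diet in KO mice ran from -0.36 to 0.33 in Xirp1 and from -0.019 to 0.41 in Xirp2. The interaction ran from -1.16 to 0.27 in Ankrd1, from -0.32 to 0.31 in Ankrd2, from -0.15 to 0.15 in Ankrd23, from -0.042 to 0.86 in Csrp3 and from -0.38 to 0.31 in Xirp1. With 3 samples a group and an unknown depth, differences of the size of these SEs could not be resolved.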
